A study of Homo sapiens with 8 samples.

Results

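The genes described here are 10 heat shock proteins of the cytosol and the mitochondrion: HSPA1A, HSPA1B, HSPA8, HSPH1, HSP90AA1, HSP90AB1, DNAJB1, HSPB1, HSPD1 and HSPE1. They were taken by name, as genes of the heat shock factor 1 (HSF1) type, with earlier results of these data known. All 10 were present among the 23368 genes of the table, and all 10 were among the 13010 genes with a mean of at least 10 normalised counts over the 8 libraries, which were the genes tested. The cells were H2030-BrM, a brain-metastatic derivative of the human lung adenocarcinoma line H2030, and every group carried the EGFP-Rpl10a construct, which puts an EGFP tag on a ribosomal protein so that translating ribosomes and their mRNA can be pulled down with an anti-EGFP antibody (translating ribosome affinity purification). The 4 groups had 2 biological replicates each. They were L1CAM shRNA cells on a mouse organotypic brain slice for 48 h (knockdown slice), luciferase shRNA cells on a slice for 48 h (control slice), L1CAM shRNA cells in a dish at 0 h (knockdown dish) and luciferase shRNA cells in a dish at 0 h (control dish). Slices were kept in DMEM and HBSS with 5% serum and dishes in RPMI medium with 10% serum, so that substrate, medium, serum and time cannot be told apart in any slice against dish difference. The mouse cells of the slice carry no tag.

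Heat shock proteins are chaperones, which bind unfolded or partly folded proteins and help them to fold, to refold after stress or to reach degradation. The HSP70 proteins bind exposed hydrophobic stretches in a cycle of ATP hydrolysis, J-domain proteins such as DNAJB1 bring substrates and start the hydrolysis, HSP110 proteins such as HSPH1 exchange the nucleotide, and HSP90 acts later on kinases, receptors and other client proteins. In the mitochondrion HSPD1 (HSP60) forms a folding chamber that HSPE1 (HSP10) closes as a lid. HSF1 binds heat shock elements in the promoters of many of these genes and raises their transcription when unfolded protein accumulates.

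A heat shock element is built of inverted repeats of the unit NGAAN, and the stretches below are shown because they hold the longest run of such units found in a promoter window of each gene that had one. RefSeq windows of GRCh38.p14, running from 250 bases before to 50 bases after an annotated start, were searched on both strands for pairs of units (GAANNTTC or TTCNNGAA, each its own reverse complement) and for overlapping triplets (GAANNTTCNNGAA or TTCNNGAANNTTC). A pair was present in 13.5% of all 35116 windows and in at least 1 window of 16.2% of 27305 genes. A triplet was present in 0.490% of the windows and 0.608% of the genes. Of the 10 heat shock genes, 8 had a pair and 4 had a triplet (HSPA8, HSP90AA1, HSP90AB1 and HSPD1). No pair was found in the windows of HSPH1 and HSPE1. The HSPE1 window began at chr2:197500129, and the HSPD1 match at chr2:197500068-197500085 lies upstream of HSPE1, outside that window. Capitals mark the matched letters, read 5′ to 3′ on the gene's strand.
HSPA1A, chr6:31815416-31815465, plus strand: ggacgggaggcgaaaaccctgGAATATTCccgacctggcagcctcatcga
HSPA1B, chr6:31827612-31827661, plus strand: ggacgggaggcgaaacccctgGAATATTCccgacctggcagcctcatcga
DNAJB1, chr19:14518446-14518495, minus strand: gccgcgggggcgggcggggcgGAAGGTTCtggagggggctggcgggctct
HSPB1, chr7:76302470-76302519, plus strand: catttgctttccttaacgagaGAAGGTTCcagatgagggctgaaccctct
HSPA8, chr11:123062333-123062386, minus strand: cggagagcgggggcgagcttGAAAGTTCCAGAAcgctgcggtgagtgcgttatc
HSP90AA1, chr14:102087099-102087153, minus strand: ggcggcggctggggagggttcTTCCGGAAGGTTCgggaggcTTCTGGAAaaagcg
HSP90AB1, chr6:44247757-44247811, plus strand: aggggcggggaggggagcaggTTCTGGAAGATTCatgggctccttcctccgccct
HSPD1, chr2:197500047-197500090, minus strand: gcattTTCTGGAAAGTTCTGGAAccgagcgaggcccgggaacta

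The stretches of HSPA1A and HSPA1B, neighbouring genes for nearly the same inducible HSP70, had the same letter at 49 of 50 positions. In HSPD1 the overlapping pairs joined into a run of 18 bases, the longest of the 10 genes. HSPA8, HSP90AA1, HSP90AB1 and DNAJB1 each had a further separate element within the same window, that of HSP90AA1 close enough to stand in the stretch printed. A match describes these letters and was not tested for binding.

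The libraries held 13486212 to 16734651 reads assigned to genes, recovered from the normalised counts, and 1 read was worth 0.916 to 1.19 normalised counts. L1CAM, the target of the hairpin, was at 74.7 and 65.4 normalised counts in knockdown slice libraries against 451 and 438 in control slice libraries, and at 126 and 88.3 in knockdown dish libraries against 482 and 440 in control dish libraries. The epithelial keratins KRT8 and KRT18 lay between 3460 and 6002 normalised counts in every library. Of the other epithelial markers listed, EPCAM lay between 78.3 and 169 normalised counts and KRT19 was at 0 or 1 read. Knockdown slice replicate 2 stood apart from replicate 1 of its group: short transcripts were higher in it and long ones lower, with median log2 differences of 0.58 in the 10% of tested genes with the shortest exons and -0.71 in the 10% with the longest, against -0.07 to 0.09 in the other groups. Among the heat shock genes, the log2 difference between these replicates was 1.02 for HSPB1, 0.75 for HSPA1A, 0.69 for HSPE1 and 0.59 for HSPA1B, and between -0.16 and 0.10 for the other 6. HSPB1 and HSPE1 have the shortest exons of the 10, at 1060 and 1030 bases. Results that rest on this replicate are therefore given with and without it.

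Among the 13010 tested genes, HSP90AA1 had the highest mean count in the dish and the 7th highest on the slice. Set per kilobase of exon, the scale on which genes can be compared, its mean level was 13645 normalised counts per kb on the slice and 30400 in the dish, which ranked 34th and 10th of 12462 genes with a length. HSPA8, the constitutive HSP70, ranked 33rd on the slice and 30th in the dish, with 13702 and 12515 normalised counts per kb. HSP90AB1, the constitutive HSP90, ranked 126th on the slice and 38th in the dish. HSPD1 ranked 321st and 123rd, and HSPB1, a small heat shock protein that holds unfolding proteins in solution, 200th and 162nd, slice before dish. The other 5 genes were lower: DNAJB1, HSPE1, HSPH1, HSPA1B and HSPA1A had means of 897, 707, 626, 512 and 318 normalised counts per kb on the slice, against 581, 663, 831, 293 and 178 in the dish. Together the 10 genes took 0.846% to 0.927% of the normalised signal in the 4 slice libraries, against 1.35% to 1.49% in the 4 dish libraries.

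**Figure D1:**
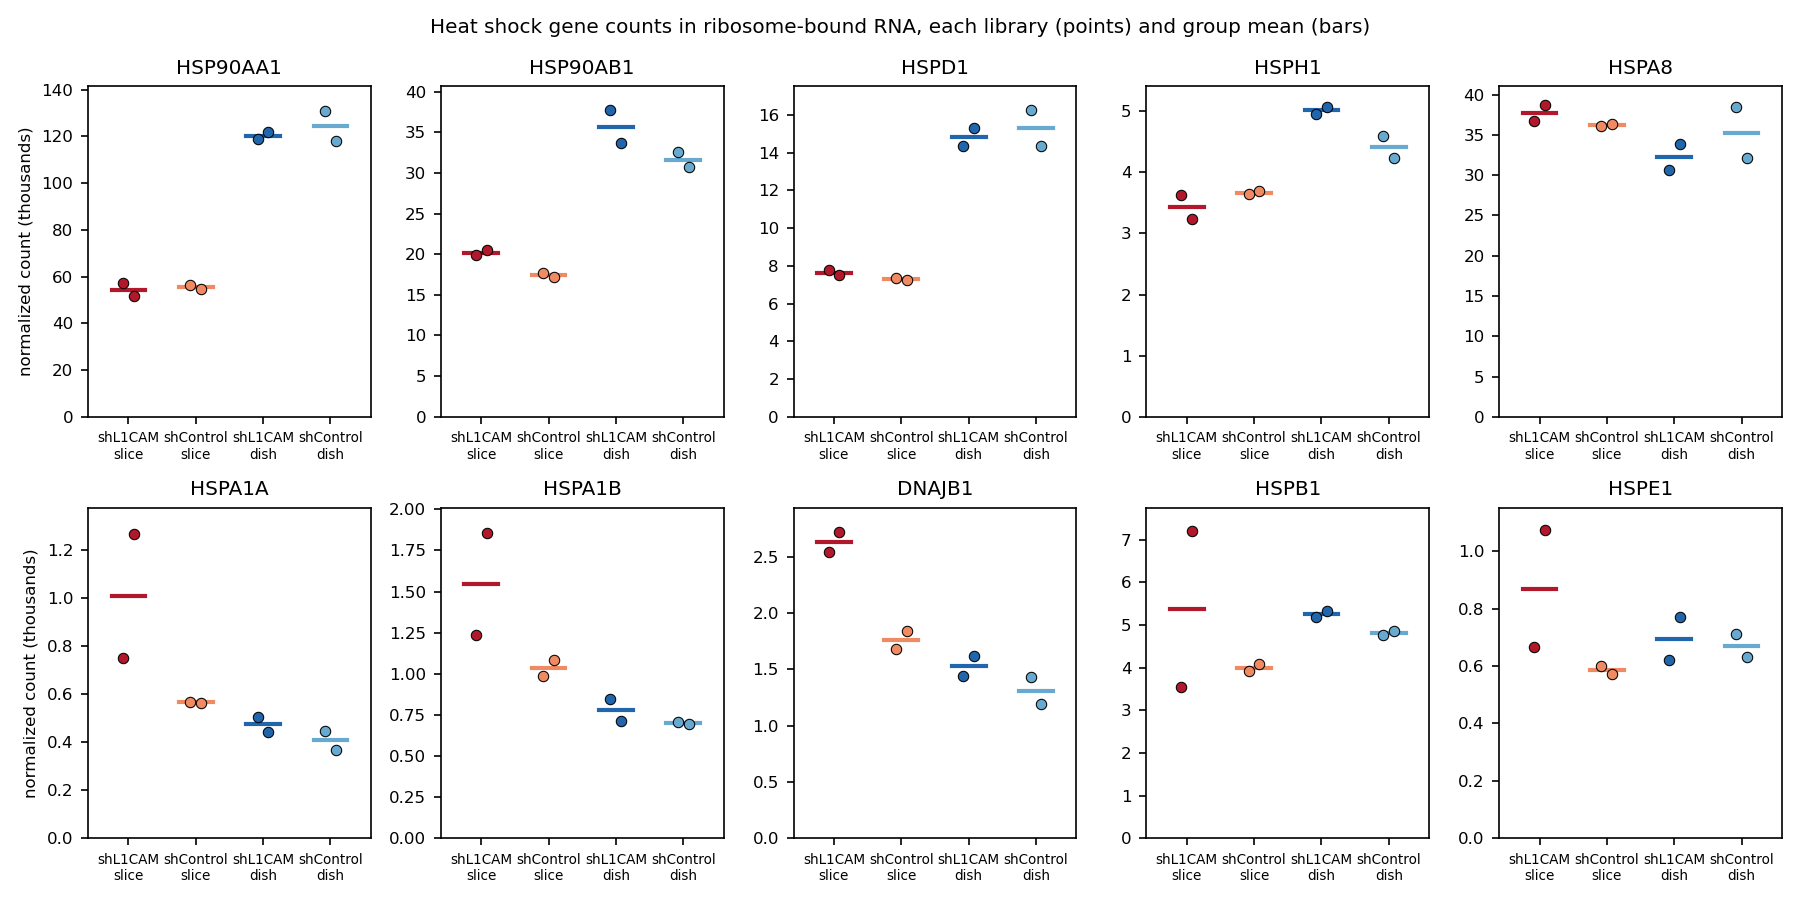
Normalised counts (axes in units of 1000, linear from 0) of the 10 heat shock genes in each of the 8 libraries (points), with the mean of each group of 2 as a bar. HSP90AA1, HSP90AB1, HSPD1 and HSPH1 are lower in every slice library than in any dish library, HSPA1A, HSPA1B and DNAJB1 are higher, and replicate 2 of the knockdown slice lies far above replicate 1 for HSPB1.

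On the brain slice, both cytosolic HSP90 genes and the mitochondrial HSPD1 were at close to 50% of their dish level, HSPH1 was lower by less, and the inducible HSP70 genes HSPA1A and HSPA1B rose together with their J-domain partner DNAJB1. Averaged over both shRNAs, 3 of the 10 genes rose and 4 fell (limma on log2(normalised count + 1), Benjamini-Hochberg adjusted p under 0.05 over all tested genes). The same call was made for 37.7% of all tested genes, 18.6% higher and 19.1% lower. The median log2 fold change was -0.06 over the 10 genes and 0.00 over all tested genes. Leaving out knockdown slice replicate 2 gave medians of -0.24 and 0.01. In bulk libraries such as these, a change in each cell and a change in how many cells carry an mRNA cannot be told apart.

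HSP90AA1, the stress-inducible HSP90, was at 57211 and 51625 normalised counts in knockdown slice libraries and 56354 and 54599 in control slice libraries, against 118809 and 121883 in knockdown dish libraries and 130874 and 118118 in control dish libraries. Every slice library was below every dish library, and the slice mean of 54947 was 55.1% below the dish mean of 122421. The log2 fold change was -1.16 ± 0.10 (SE, limma adjusted p = 0.000202). HSP90AB1 was at 19926 and 20472 in knockdown slice libraries and 17683 and 17153 in control slice libraries, against 37716 and 33645 in knockdown dish libraries and 32591 and 30677 in control dish libraries. Here too no slice library reached a dish library, and the log2 fold change was -0.84 ± 0.10 (SE, limma adjusted p = 0.000506).

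HSPD1 was at 7754 and 7535 normalised counts in knockdown slice libraries and 7347 and 7239 in control slice libraries, against 14344 and 15279 in knockdown dish libraries and 16245 and 14357 in control dish libraries. The 4 slice values lay within a narrow band, and the slice mean was 50.4% below the dish mean (log2 fold change -1.01 ± 0.09, SE, limma adjusted p = 0.000228). HSPH1, the HSP110 that resets HSP70 by nucleotide exchange, was at 3626 and 3240 in knockdown slice libraries and 3641 and 3687 in control slice libraries, against 4961 and 5064 in knockdown dish libraries and 4592 and 4230 in control dish libraries. The groups did not overlap, and the log2 fold change was -0.41 ± 0.09 (SE, limma adjusted p = 0.0098). The HSPH1 call was lost when control slice replicate 1, control slice replicate 2 or control dish replicate 1 was left out, with limma adjusted p of 0.0623, 0.0607 and 0.0577. The calls of HSP90AA1, HSP90AB1 and HSPD1 held in all 8 fits that left out 1 library, with limma adjusted p of at most 0.00667.

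HSPA1A was at 754 and 1268 normalised counts in knockdown slice libraries and 569 and 566 in control slice libraries, against 506 and 445 in knockdown dish libraries and 446 and 370 in control dish libraries. All 4 slice libraries lay above all 4 dish libraries, the highest being the replicate that stands apart. The log2 fold change was 0.76 ± 0.17 (SE, limma adjusted p = 0.0081), and 0.57 without knockdown slice replicate 2 (limma adjusted p = 0.000156). HSPA1B was at 1236 and 1857 in knockdown slice libraries and 987 and 1086 in control slice libraries, against 846 and 713 in knockdown dish libraries and 705 and 693 in control dish libraries. It also showed no overlap between slice and dish. Its slice over dish value was 0.76 ± 0.14 on the log2 scale (SE; limma adjusted p = 0.00399), and 0.62 without that replicate. HSPA1A and HSPA1B share 72.6% and 73.5% of their 50-base transcript windows with other genes, nearly all with each other, so how reads were split between them is uncertain. Whether shared reads were left out of both counts, and so of their levels and their sum, was not tested.

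DNAJB1, which delivers substrates to HSP70, was at 2539 and 2721 normalised counts in knockdown slice libraries and 1681 and 1842 in control slice libraries, against 1446 and 1620 in knockdown dish libraries and 1428 and 1192 in control dish libraries. The replicates of the knockdown slice were close to each other for this gene, and all slice libraries were above all dish libraries. The log2 fold change was 0.61 ± 0.11 (SE, limma adjusted p = 0.00306) and stayed between 0.54 and 0.67 in the 8 fits that left out 1 library, all of them past the threshold. The slice and dish libraries of the 7 called genes did not overlap, 3 higher and 4 lower, where 16.9% and 18.2% of all tested genes were higher and lower without overlap.

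HSPA8, HSPB1 and HSPE1 did not pass the threshold, and their slice and dish libraries overlapped. HSPA8 was at 36707 and 38721 normalised counts in knockdown slice libraries and 36084 and 36421 in control slice libraries, against 30681 and 33897 in knockdown dish libraries and 38437 and 32103 in control dish libraries. Its log2 fold change was 0.14 with a 95% interval of -0.10 to 0.37. HSPB1 was at 3544 and 7202 in knockdown slice libraries and 3915 and 4086 in control slice libraries, against 5188 and 5339 in knockdown dish libraries and 4759 and 4860 in control dish libraries. All slice values but 1 lay below the dish values, the exception being replicate 2 of the knockdown slice, the highest of the 8. The log2 fold change of HSPB1 was -0.16 with a 95% interval of -0.60 to 0.28 (limma adjusted p = 0.533). Without that replicate it was -0.42 (limma adjusted p = 0.000117), without replicate 1 of the same group 0.09 (limma adjusted p = 0.228), and with a trend on exon length removed from each library -0.34 (limma adjusted p = 0.0258). HSPE1 was at 666 and 1072 in knockdown slice libraries and 601 and 573 in control slice libraries, against 620 and 771 in knockdown dish libraries and 711 and 631 in control dish libraries. Again the highest value was in knockdown slice replicate 2, and the log2 fold change was 0.05 with a 95% interval of -0.32 to 0.41. HSPD1 and HSPE1, whose genes lie head to head, thus had log2 fold changes of -1.01 and 0.05, and the difference between the genes was not tested. HSPE1 shares 27.2% of its 50-base windows with other annotated transcripts, among them 16.0% with the readthrough gene HSPE1-MOB4. That readthrough gene was listed at 0 in all 8 libraries, and MOB4 itself was at 0 or 1 read in each. Whether shared reads were left out of the HSPE1 count, and so of its level and fold change, was not tested. Other annotated transcripts, pseudogenes included, share 24.8% of the windows of HSPD1, 18.8% of HSP90AB1, 17.5% of HSP90AA1, 15.4% of HSPA8, 11.4% of HSPB1, 2.57% of DNAJB1 and 0% of HSPH1, and the handling of such reads is not given in the sources used here.

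Within each shRNA the same genes were compared with 2 libraries a group. In knockdown cells, 7 of the 10 genes passed the threshold on the slice against the dish, 3 higher and 4 lower, where 21.3% of all tested genes were called. Their log2 fold changes were 1.04 for HSPA1A, 0.96 for HSPA1B, 0.78 for DNAJB1, -0.55 for HSPH1, -1.15 for HSP90AA1, -0.82 for HSP90AB1 and -0.95 for HSPD1. In control cells 3 genes passed, all lower, where 14.8% of all tested genes were called. These were HSP90AA1 at -1.16, HSP90AB1 at -0.86 and HSPD1 at -1.07. HSPA1B, DNAJB1, HSPA1A and HSPH1 had log2 fold changes of 0.57, 0.43, 0.48 and -0.27 in control cells, with limma adjusted p of 0.0935, 0.0873, 0.2 and 0.205. The 4 groups share 1 estimate of the spread per gene, to which knockdown slice replicate 2 contributes. Without it, 8 of the 10 genes passed in control cells (all but HSPA8 and HSPE1), where 47.0% of all tested genes were called. In knockdown cells 8 passed without it, where 38.7% of all tested genes were called, and 9 without knockdown slice replicate 1, where 57.7% were. Averaged over both hairpins 8 passed without it, the 7 named and HSPB1, where 57.5% of all tested genes were called. In control cells 0 passed without control slice replicate 1 (0.500% of all tested genes), without control slice replicate 2 (0.446%) or without control dish replicate 1 (0.0538%), and 2 without control dish replicate 2 (0.984%). In those 4 fits the log2 fold changes of HSP90AA1 and HSPD1 stayed between -0.98 and -1.24. In knockdown cells 2 passed without knockdown dish replicate 1 (2.62% of all tested genes) and 3 without replicate 2 (4.57%). When the fit held just the libraries compared, 8 of the 10 genes passed in control cells, where 52.3% of all tested genes were called, and 1 in knockdown cells, HSP90AA1, where 3.92% were.

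**Figure D2:**
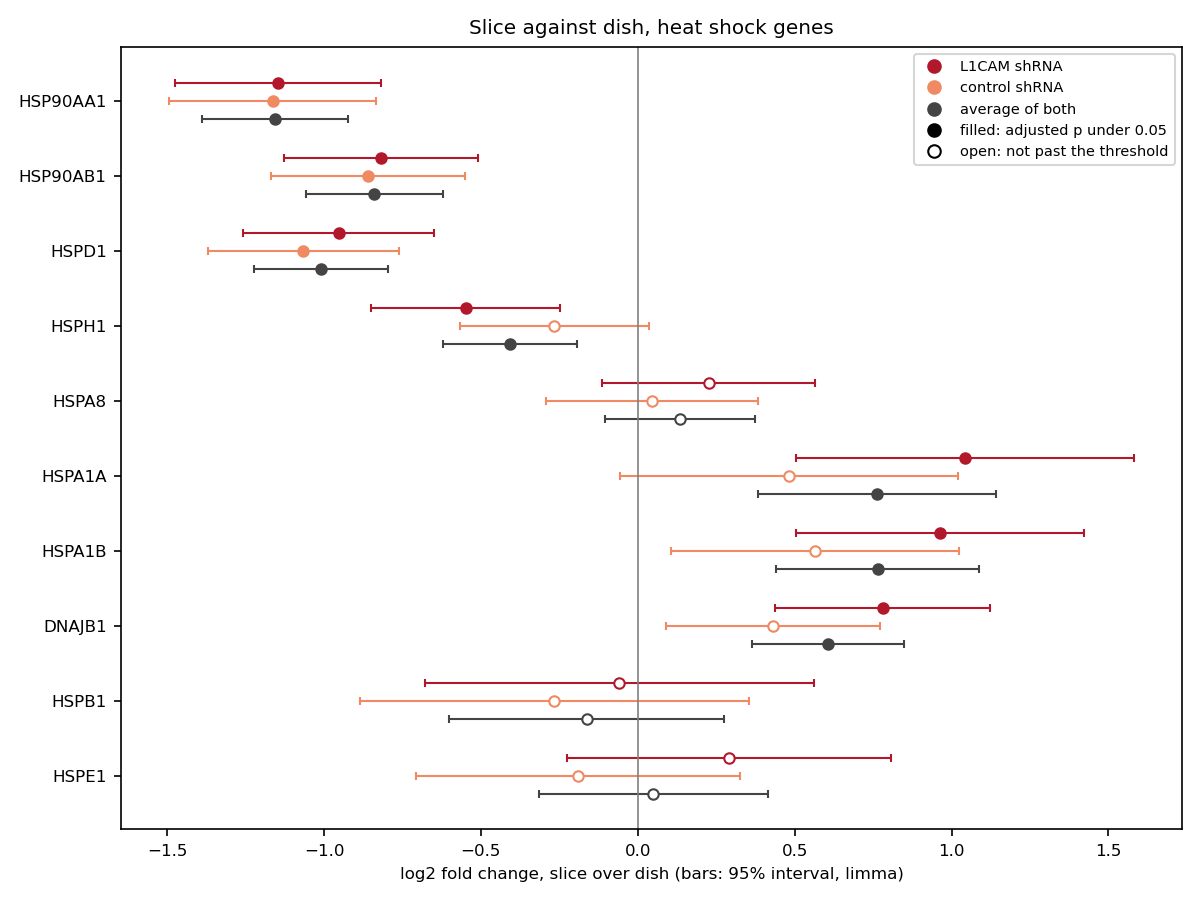
Log2 fold change, slice over dish, of the 10 genes in knockdown cells, control cells and the average of both, with 95% intervals from limma. Points are filled where the adjusted p is under 0.05. HSP90AA1, HSP90AB1 and HSPD1 lie between -0.82 and -1.16 for both shRNAs, and HSPA1A, HSPA1B and DNAJB1 lie above 0 for both.

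Ratios within a library do not depend on the scaling between libraries. The sum of HSP90AA1 and HSP90AB1 counts over the HSPA8 count was 2.10 and 1.86 in knockdown slice libraries and 2.05 and 1.97 in control slice libraries, against 5.10 and 4.59 in knockdown dish libraries and 4.25 and 4.63 in control dish libraries. All slice ratios were below all dish ratios. The inducible HSP70 genes, HSPA1A and HSPA1B together, gave 5.42 and 8.07 counts per 100 HSPA8 counts in knockdown slice libraries and 4.31 and 4.54 in control slice libraries, against 4.41 and 3.41 in knockdown dish libraries and 3.00 and 3.31 in control dish libraries. This ratio overlapped between control slice and knockdown dish libraries.

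DNAJB1 gave 6.92 and 7.03 counts per 100 HSPA8 counts in knockdown slice libraries and 4.66 and 5.06 in control slice libraries, against 4.71 and 4.78 in knockdown dish libraries and 3.72 and 3.71 in control dish libraries. The DNAJB1 ratio was higher in knockdown than in control libraries within each culture, but it overlapped between control slice and knockdown dish libraries. By count, 26% of all tested genes on the slice and 25.7% in the dish were higher in knockdown libraries without overlap. HSPD1 over HSPA9, the mitochondrial HSP70 that passes imported proteins on, was 0.809 and 0.829 in knockdown slice libraries and 0.660 and 0.657 in control slice libraries, against 0.938 and 1.08 in knockdown dish libraries and 1.02 and 0.930 in control dish libraries. The slice ratios were all lower than the dish ratios, and the control slice ratios were the lowest. Per kilobase, HSP90AA1 exceeded HSP90AB1 in every library, by 2.12 and 1.87 times in knockdown slice libraries and 2.36 and 2.36 times in control slice libraries, against 2.33 and 2.68 times in knockdown dish libraries and 2.97 and 2.85 times in control dish libraries.

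The L1CAM hairpin was then set against the luciferase hairpin within each culture. On the slice, the largest differences were in HSPA1A, DNAJB1, HSPA1B and HSPE1, with log2 fold changes, knockdown over control, of 0.78, 0.58, 0.55 and 0.53 and limma adjusted p of 0.177, 0.144, 0.231 and 0.27. None of the 10 genes passed the threshold by limma, where 0.646% of all tested genes did. At an unadjusted limma p under 0.05 these 4 genes and 2384 of all tested genes passed, edgeR called 0 of the 10 and 86 of all tested genes, and DESeq2 called 1 of the 10, HSPA1A (DESeq2 adjusted p = 0.0482), and 339 of all tested genes. DNAJB1 was at 2539 and 2721 normalised counts in knockdown slice libraries against 1681 and 1842 in control slice libraries, a fold of 1.49 between the means, and the libraries did not overlap. In this comparison of 2 with 2 libraries, 26% of all tested genes were higher and 24.1% lower without overlap. Of the 10 genes, 7 were higher and 1 lower. Without knockdown slice replicate 2, DNAJB1 alone of the 10 passed, at 0.53 on the log2 scale (limma adjusted p = 0.034), where 4.67% of all tested genes were called, and without replicate 1 it was 0.63 (limma adjusted p = 0.00128). HSPA1A differed by 0.41 without replicate 2 (limma adjusted p = 0.135) and by 1.16 without replicate 1 (limma adjusted p = 2.79e-05). Without replicate 1 of the knockdown slice 5 of the 10 genes passed, where 53.0% of all tested genes were called. With 1 library left out, the slice difference ran from 0.26 to 0.84 for HSPA1B and from 0.18 to 0.87 for HSPE1, against 0.51 to 0.64 for DNAJB1. Intervals of 95% for the slice difference of HSP90AA1, HSPD1 and HSPA8 ran from -0.36 to 0.30, -0.24 to 0.37 and -0.28 to 0.39.

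In the dish, the knockdown over control log2 fold changes of the 10 genes lay between -0.12 for HSPA8 and 0.23 for DNAJB1. None passed the threshold, where 0.307% of all tested genes did. At an unadjusted limma p under 0.05, 0 of the 10 and 1217 of all tested genes passed, edgeR called 0 of the 10 and 77 of all tested genes, and DESeq2 called 0 of the 10 and 183. Averaged over both cultures, the log2 fold changes were 0.40 for DNAJB1 (95% interval 0.16 to 0.65, limma adjusted p = 0.0716), 0.50 for HSPA1A (0.12 to 0.88, limma adjusted p = 0.126) and 0.35 for HSPA1B (0.03 to 0.67, limma adjusted p = 0.189). Again 0 of the 10 genes passed, where 3.68% of all tested genes did. These 3 genes and 3042 of all tested genes had an unadjusted limma p under 0.05, edgeR called 0 of the 10 and 497 of all tested genes, and DESeq2 called DNAJB1 and HSPA1A (DESeq2 adjusted p = 0.0266 and 0.0487) and 1051 of all tested genes. Without knockdown slice replicate 2, limma called the same DNAJB1 and HSPA1A, at log2 fold changes of 0.38 and 0.32 (limma adjusted p = 0.00695 and 0.0311). No other call was made among the 10 genes without that replicate, where 19.2% of all tested genes passed, and 6 of the 10 were called without replicate 1, where 51.8% did. The median over the 10 genes was 0.28 on the slice, 0.14 in the dish and 0.21 on average. Over all tested genes these medians were -0.00, 0.01 and 0.00. Leaving out knockdown slice replicate 2 gave 0.14 on the slice and 0.10 on average for the 10 genes. Over all tested genes the median was then 0.01 in both.

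**Figure D3:**
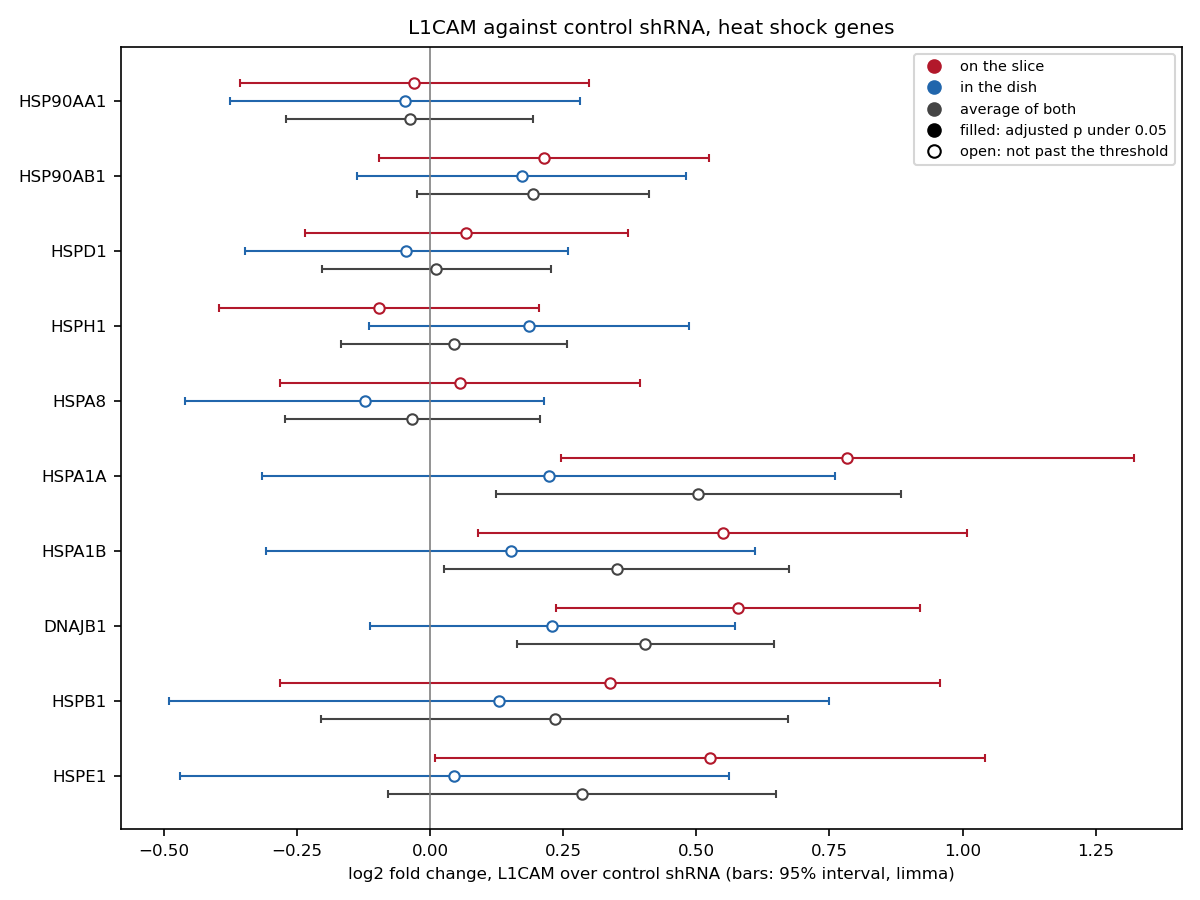
Log2 fold change, knockdown over control, of the 10 genes on the slice, in the dish and averaged, with 95% intervals from limma; open points are not past the adjusted threshold. All 30 points are open, and HSPA1A, HSPA1B, DNAJB1 and HSPE1 have slice intervals above 0.

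The difference between the slice effects of the 2 hairpins was tested as an interaction. Its log2 values were 0.56 for HSPA1A, 0.48 for HSPE1, 0.40 for HSPA1B and 0.35 for DNAJB1, with 95% intervals that include 0, and 0.02 for HSP90AA1, with an interval of -0.45 to 0.48. With 1 library left out, the lowest values were 0.19 for HSPA1A, 0.14 for HSPE1, 0.10 for HSPA1B and 0.22 for DNAJB1. The median over the 10 genes was 0.19, and 0.12 without knockdown slice replicate 2. No gene of the 10 and 0% of all tested genes passed (limma adjusted p of at least 0.97 for the 10), with 0 of the 10 and 162 of all tested genes at an unadjusted p under 0.05, and 0 of the 10 by edgeR and by DESeq2. Without knockdown slice replicate 1, so that the replicate that stands apart was left alone in its group, HSPA1A, HSPA1B, HSPB1 and HSPE1 passed, where 31.8% of all tested genes did.

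Other genes of the same chaperone systems were counted in lists drawn up by function, again for the slice against the dish averaged over both hairpins and against the background of 18.6% higher and 19.1% lower. Of 9 tested HSP70 and HSP110 genes outside the 10, 5 fell and 1 rose, with a median log2 fold change of -0.46. HSPA4L, an HSP110 close to HSPH1, was at 422 and 244 normalised counts in knockdown slice libraries and 447 and 430 in control slice libraries, against 1148 and 1096 in knockdown dish libraries and 1045 and 1010 in control dish libraries. It was below its dish level in all 4 slice libraries (log2 fold change -1.51, limma adjusted p = 0.000391). HSPA4, another HSP110, fell by 0.64, the mitochondrial HSPA9 by 0.58 and HSPA14 by 0.46 on the log2 scale. Of 22 HSP90 co-chaperones, 10 fell and 2 rose, with a median of -0.39. Among those that fell were AHSA2 (-1.47), related to the activators of the HSP90 ATPase, RUVBL1 (-0.82), an ATPase of the R2TP assembly complex, PTGES3 (-0.62), the p23 protein that stabilises closed HSP90, and the cyclophilin PPID (-0.50).

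Of 20 mitochondrial chaperones and proteases, 8 fell and 2 rose, with a median log2 fold change of -0.22. CLPB, the mitochondrial disaggregase, fell by 0.80 and CLPX, the unfoldase of the ClpXP protease, by 0.53, while HSCB, a J-domain protein of iron-sulfur cluster transfer, rose by 0.71. Of 15 genes of the cytosolic folding chamber TRiC and of prefoldin, which hands it actin and tubulin chains, 7 fell and 1 rose, with a median of -0.30. The subunits CCT5, CCT4, CCT6A and CCT8 fell by 0.62, 0.55, 0.48 and 0.37. Of 9 genes that exchange HSP70's nucleotide or couple it to ubiquitin, 3 rose and 0 fell by limma, with a median of 0.23. The 3 were BAG1 (0.90), the ubiquitin ligase STUB1 (0.84) and BAG4 (0.41). STUB1 was at 2301 and 3882 normalised counts in knockdown slice libraries and 2015 and 2114 in control slice libraries, against 1398 and 1568 in knockdown dish libraries and 1314 and 1276 in control dish libraries.

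Of 14 tested J-domain genes of the cytosol, DNAJB2 rose by 0.60 and DNAJA2 fell by 0.31, and the median was 0.01. Of 2 tested small heat shock genes, HSPB6 at -0.32 and HSPB11 at 0.15, 0 passed by limma, with adjusted p of 0.394 and 0.429 and unadjusted p of 0.284 and 0.316. Among 11 HSF factors and regulators, 3 rose and 2 fell. HSF1 itself rose by 0.55 (limma adjusted p = 0.0206), at 2499 and 4024 normalised counts in knockdown slice libraries and 2931 and 3030 in control slice libraries, against 1732 and 2061 in knockdown dish libraries and 2387 and 2270 in control dish libraries. The slice libraries were all above the dish libraries, but the HSF1 call was lost in 5 of the 8 fits that left out 1 library, with limma adjusted p up to 0.0909. HSF4, a factor best known from the lens, fell by 1.51, IER5L rose by 0.93, and the histone-binding RBBP7 fell by 0.76. Of 15 other HSF1 targets, 2 rose and 3 fell. DEDD2 and TCP11L2 rose by 1.14 and 1.73. The 3 that fell, STIP1 (-0.45), FKBP4 (-0.37) and CHORDC1, are HSP90 co-chaperones already counted in that list, and BAG3, IER5 and HSPA9 also stand in 2 lists each. The call of STIP1 was lost in 2, and that of FKBP4 in 6, of the 8 fits that left out 1 library. Those of BAG4 (6), DNAJA2 (6), HSPA14 (4), CLPX (3), CCT8 (3) and DNAJB2 (2) were lost in the number of fits given beside each name.

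Without knockdown slice replicate 2, where 3808 of all tested genes were higher and 3667 lower, the counts, higher then lower, were 1 and 5 for the other HSP70 and HSP110 genes, 2 and 15 for the HSP90 co-chaperones, 2 and 13 for the mitochondrial list, 2 and 8 for TRiC and prefoldin, 7 and 1 for nucleotide exchange and ubiquitin partners, 4 and 2 for the J-domain genes, 3 and 3 for the HSF list and 3 and 7 for the other HSF1 targets. For the L1CAM hairpin averaged over both cultures, 1 gene of these lists passed the threshold, where 3.68% of all tested genes did. That gene was ATF3, a stress-responsive factor. It was at 164 and 202 normalised counts in knockdown slice libraries and 132 and 178 in knockdown dish libraries, against 272 and 270 in control slice libraries and 291 and 255 in control dish libraries (log2 fold change -0.70, limma adjusted p = 0.0348). Every knockdown library was below every control library, as for 5.23% of all tested genes, and the ATF3 call was lost in 6 of the 8 fits that left out 1 library. Values short of the threshold included FKBPL at 0.69 (limma adjusted p = 0.0716), GRPEL2 at -0.44 (0.0737), CLPX at -0.46 (0.0744), IER5 at -0.42 (0.0876) and BAG3, an HSF1 target and HSP70 partner, at -0.31 (0.0996). The remaining values nearest to the threshold in each list were HSBP1 at 0.34, BAG5 at -0.42, RUVBL1 at 0.28, DNAJB6 at 0.33, DNAJC21 at -0.23, HSPA2 at 0.46, HSPA9 at -0.17, CCT3 at 0.16, CCT8 at -0.12, HSPB11 at 0.16 and HSPB6 at -0.09, and none of them passed by limma.

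Markers of mouse brain cells were examined because RNA of the slice could enter the pulldown. The processing notes name only the human build hg19, so a mouse read would count only where it matched a human gene. A marker at 0 therefore cannot show that mouse RNA was absent. MOG, AGT, P2RY12, C1QA and C1QB were at 0 in all 8 libraries, and GFAP was at 0 or 1 read. The summed level of the 12 neuron markers was 372 to 433 on the slice and 351 to 530 in the dish, that of the 7 astrocyte markers 1095 to 1535 and 1836 to 2405, and that of 5 oligodendrocyte markers 5355 to 6386 and 4308 to 5042. Without the highest gene of each list (NEFL, GJA1 and CNP) these sums were 166 to 208 on the slice and 186 to 228 in the dish for neurons, 117 to 287 and 179 to 351 for astrocytes, and 963 to 2030.3 and 856 to 1294 for oligodendrocytes. MBP, a myelin protein gene, was at 1473 and 961 normalised counts in knockdown slice libraries and 2030.3 and 1821 in control slice libraries, against 855 and 856 in knockdown dish libraries and 1293 and 1181 in control dish libraries, higher on the slice within each hairpin (log2 fold change 0.56, limma adjusted p = 0.0149). SLC17A7, a glutamate transporter of neurons, was at 28.6 and 35.7 in knockdown slice libraries and 85.0 and 76.0 in control slice libraries, against 28.4 and 11.0 in knockdown dish libraries and 18.6 and 40.6 in control dish libraries, and rose by 1.16 (limma adjusted p = 0.0247). The neuron markers GAD1 and RBFOX3 fell by 0.69 and 1.24 and the astrocyte marker GJA1 by 0.69 (limma adjusted p = 0.00913, 0.0325 and 0.00328). The 9 microglia and macrophage markers summed to 5.73 to 16.6 on the slice and 6.60 to 16.1 in the dish, and the 7 endothelial and mural markers to 40.1 to 51.4 and 46.7 to 72.3, or 8.59 to 17.8 and 6.60 to 10.8 without RGS5. The endothelial PECAM1 was at 5.53 and 7.14 in knockdown slice libraries and 1.91 and 4.28 in control slice libraries, against 0.916 and 0 in knockdown dish libraries and 0 and 0.943 in control dish libraries. MBP, SLC17A7, GAD1, RBFOX3, GJA1 and PECAM1 were singled out after their values were seen. The part of such RNA in the heat shock differences was not tested.

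The mean of the 10 genes' log2 counts, each centred over the 8 libraries, was -0.06 and 0.23 in knockdown slice libraries and -0.22 and -0.20 in control slice libraries, against 0.10 and 0.12 in knockdown dish libraries and 0.09 and -0.06 in control dish libraries. The highest value again belonged to knockdown slice replicate 2. Of 11030 tested genes outside the 10 with a mean of at least 50 and a name not beginning with LOC, MIR or SNOR, those whose log2 counts followed this profile most closely were COG4, TIMM44, NCLN, PSMD3 and THOP1, with Pearson r of 0.990, 0.984, 0.984, 0.983 and 0.980 over the 8 libraries. These libraries share cells, scaling and the length difference of that replicate, and the profile sums genes that rose and genes that fell.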

How the data were processed

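FastQC 0.11.3, HTSeq 0.5.4, DESeq2 and the genome build hg19 (GRCh37) appear in the submitters' processing notes, while the sources used here name no aligner or counting options. The deposited signal values are normalised counts per gene, a count divided by a size factor, as the authors gave them. Dividing by the value of 1 read gave whole reads for 100% of values in all 8 libraries (tolerance 1e-06). For 1 knockdown dish library that step was too close to 1 for the formal test of recovery.

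Log2(normalised count + 1) was fitted with limma 3.58.1 (R 4.3.3, trend, two-sided) over 13010 genes, with 4 group means and 7 contrasts, and p-values were adjusted over all of them. Alternatives included edgeR 4.0.16 and DESeq2 1.42.0 on recovered reads. The scripts were tested on simulated data. Exon lengths (GENCODE 29, merged exons) were found for 12462 tested genes (95.8%).

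The 10 genes and the lists were chosen with earlier results of these data known. From each list, up to 4 genes past the threshold with the smallest p were named, or the 2 with the smallest p where none passed. Intervals cover the spread between libraries only. Of the listed brain cell markers, 1 is not reported here.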

Additional observations from a re-analysis of the deposited data

How the results depend on the processing

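Averaged over both hairpins, 6 to 8 heat shock genes were called on the slice under every alternative run, 7 as reported. Within control cells the reported 3 became 8 when just the libraries compared were used, 5 with the trend on exon length removed, and 0 to 8 with 1 library left out. Within knockdown cells the reported 7 became 1 with just the libraries compared and 2 to 9 with 1 library left out. Between hairpins the reported 0 became 1 on the slice and 2 on average with DESeq2. With 1 library left out it became 0 to 5 on the slice, 0 to 6 on average and 0 to 4 for the interaction, and stayed at 0 in the dish. Over all tested genes the counts for the slice against the dish ran from 2681 to 8241 (4899 as reported), in control cells from 7 to 6808 (1930) and in knockdown cells from 341 to 7503 (2775). Between hairpins they ran from 0 to 6896 on the slice (84), 0 to 1437 in the dish (40), 63 to 6738 on average (479) and 0 to 4136 for the interaction (0). The causes were not tested; a fit without a library has fewer degrees of freedom.

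Signs turned only for log2 fold changes that had not passed as reported. For HSPB1 in knockdown cells, slice over dish, edgeR gave 0.034 and DESeq2 0.030. With the length trend removed, HSPE1 became -0.14 for the slice averaged over hairpins and -0.0098 for the hairpin in the dish, HSPA8 -0.052, HSPH1 0.074, HSP90AA1 0.017 and HSPD1 -0.056 for the hairpin on the slice, HSPD1 -0.068 for the hairpin on average and HSP90AB1 -0.0058 for the interaction.

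With 1 library left out, slice over dish ran from -0.084 to 0.18 for HSPA8 in control cells, from -0.57 to 0.45 for HSPB1 and -0.054 to 0.63 for HSPE1 in knockdown cells, and from -0.42 to 0.093 for HSPB1 and -0.12 to 0.22 for HSPE1 on average. Knockdown over control ran on the slice from -0.10 to 0.045 for HSP90AA1 and -0.17 to 0.85 for HSPB1, and in the dish from -0.25 to 0.0066 for HSPA8, -0.12 to 0.027 for HSP90AA1, -0.13 to 0.044 for HSPD1 and -0.11 to 0.20 for HSPE1. On average it ran from -0.098 to 0.032 for HSPA8, -0.022 to 0.49 for HSPB1 and -0.033 to 0.056 for HSPD1. The interaction ran from -0.057 to 0.092 for HSP90AA1, -0.041 to 0.12 for HSP90AB1 and -0.30 to 0.72 for HSPB1.

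With the replicate number as a replicate block, 3, 7 and 7 heat shock genes were called on the slice in control cells, in knockdown cells and on average, and 0 in the other contrasts, as without it. Replicate differences of the groups correlated with r from -0.377, between knockdown dish and control dish, to 0.194. No label says that the numbers pair libraries, and these correlations cannot tell whether libraries were handled together. With the replicate numbers of the knockdown dish swapped, an alternative chosen after seeing the data, the counts were again 3, 7, 7 and 0. TMM scaling, either other pseudocount (10 or 0.25), dropping the low-value filter or raising it to 50 left every count of called heat shock genes as reported. The lowest count of any of the 10 genes was 370 normalised counts, against 2.75 to 3.57 for 3 reads; counting error was not compared with the spread between libraries gene by gene.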
